A study of Mus musculus with 4 samples.

Results

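The BCL-2 family decides whether a stressed cell opens its mitochondria and dies. The genes described here are 10 members of that family, chosen by name: the survival genes Mcl1, Bcl2l1, Bcl2 and Bcl2a1d, the pore-forming effectors Bax and Bak1, and the BH3-only genes Bcl2l11, Bid, Bbc3 and Pmaip1. They are 10 of the 15935 genes listed in at least 1 of the 4 libraries, and all 10 were listed in every library. The libraries hold RNA from bone marrow-derived macrophages of adult C57BL/6 mice, grown over 5 days with M-CSF, the cytokine that makes marrow precursors become macrophages. WT cells came from wild type mice, and KO cells from ezh2f/f lysmcre mice, which carry a floxed Ezh2 and a Cre recombinase driven by the lysozyme M promoter, active in cells of the myeloid lineage. WT NT and KO NT were left without treatment. WT LPS and KO LPS received lipopolysaccharide (LPS), the bacterial cell wall component sensed by TLR4, over 2 h. Each of the 4 groups is 1 library, so differences are described without a test and without a replicate to check them. The labels do not say how many mice went into a library, or whether treated and untreated cells shared a culture.

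Survival proteins of this family hold their partners in check in a shared groove. BAX and BAK, when released, assemble into pores in the outer mitochondrial membrane and let cytochrome c out, which starts the caspases. BH3-only proteins are the sensors: they fill the groove of the survival proteins or act on BAX and BAK directly. In macrophages, inflammatory signals are known to act on both sides of this balance, with A1, the product of the Bcl2a1 genes, as a textbook target of NF-kappaB.

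The mouse has several near-identical Bcl2a1 genes, and this bears on how far the value of Bcl2a1d can be read. Bcl2a1d (NCBI gene 12047) lies at chr9:88723288-88731850 on the minus strand of GRCm38, Bcl2a1a at chr9:88956920-88962416, Bcl2a1b at chr9:89199273-89207838 and the shorter Bcl2a1c at chr9:114330135-114330578. Over 519 coding bases of the GENCODE M21 transcripts, Bcl2a1d differs from Bcl2a1a at 7 positions and from Bcl2a1b at 6. The first 90 coding bases are shown because they hold 6 of the 12 positions at which these 3 copies differ, here in capitals.
Bcl2a1d: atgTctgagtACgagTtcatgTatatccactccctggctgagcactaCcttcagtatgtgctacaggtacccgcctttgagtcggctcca
Bcl2a1a: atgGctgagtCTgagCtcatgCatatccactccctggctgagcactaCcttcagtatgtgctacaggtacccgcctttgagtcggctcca
Bcl2a1b: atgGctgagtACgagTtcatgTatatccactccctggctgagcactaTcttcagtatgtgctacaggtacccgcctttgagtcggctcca
Of all 50-base windows of the Bcl2a1d coding sequence, 83.6% occur letter for letter in another copy. A read of up to 50 bases from such a window fits more than 1 gene and is split among them by estimation, so the copies are given both singly and as a sum, and the value of any single copy is uncertain.

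Upstream, the copies share a block. In Bcl2a1d, Bcl2a1a and Bcl2a1b, but not in Bcl2a1c, it carries a match to the AP-1 motif as searched, TGANTCA, in capitals below. N stands for any base, and each match reads TGAATCA, with A at that free position. AP-1 is a dimer of FOS and JUN family proteins that LPS is known to activate. These are RefSeq promoter sequences of GRCm38.p6, read in the direction of transcription, and the block ends 64 bases before the RefSeq start of Bcl2a1d.
Bcl2a1d, chr9:88731915-88731984, minus strand: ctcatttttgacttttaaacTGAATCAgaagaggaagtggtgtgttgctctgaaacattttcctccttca
Bcl2a1a, chr9:88956780-88956855, plus strand: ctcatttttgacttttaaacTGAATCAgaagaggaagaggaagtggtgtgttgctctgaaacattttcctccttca
Bcl2a1b, chr9:89199089-89199164, plus strand: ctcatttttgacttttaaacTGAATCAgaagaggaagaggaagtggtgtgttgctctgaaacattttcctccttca
Bcl2a1c, chr9:114329885-114329960, plus strand: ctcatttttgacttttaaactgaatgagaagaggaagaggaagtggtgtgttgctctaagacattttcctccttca
The Bcl2a1a and Bcl2a1b blocks match all 70 bases of the Bcl2a1d block and hold 6 more. Bcl2a1c matches 67 of the 70 and has no TGANTCA in the block. It too was higher with LPS, with ratios of 20.8 in WT and 21.3 in KO, on 2.02 and 2.33 counts without LPS. Whether the motif has a part in the LPS change of any copy was not tested. Over all 32851 promoter windows of 250 bases upstream, searched on both strands, 6.75% hold TGANTCA. The 9 members with a promoter entry, all but Pmaip1, have 14 windows, and 1 of these, that of Bcl2a1d, holds it. A match is a string of letters and not a measured binding site.

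The libraries were of like depth, with summed expected counts from 5237782 (KO LPS) to 5678451 (WT NT). Levels are given in FPKM, fragments per kilobase of transcript and per unit of library size, which can be compared between genes. Where 4 values stand in a row, WT comes before KO and untreated before LPS. Ezh2, the targeted gene, was at 2.84 FPKM untreated and 2.52 with LPS in WT, and 2.06 and 1.29 in KO, from 43, 38, 31 and 18 counts. Its KO over WT ratio was 0.725 without LPS (95% counting interval 0.442 to 1.18) and 0.512 with LPS (0.275 to 0.919), so without LPS the interval included 1. The labels do not say which exons are floxed, and the gene total includes reads outside them. All 10 macrophage markers were at or above 1 FPKM in each library, with summed levels from 3310 to 3646 FPKM. Lyz2, whose promoter drives the Cre, was low for a macrophage gene at 11.6 FPKM untreated and 18.8 with LPS in WT, and 18.6 and 22.4 in KO. Markers of neutrophils and their precursors summed to 378 FPKM untreated and 412 with LPS in WT, and 644 and 563 in KO, with Ly6g at 0 in KO NT. The B cell, T and NK cell, dendritic cell, mast cell, fibroblast and red cell lists each summed to at most 13.8 FPKM.

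**Figure D1:**
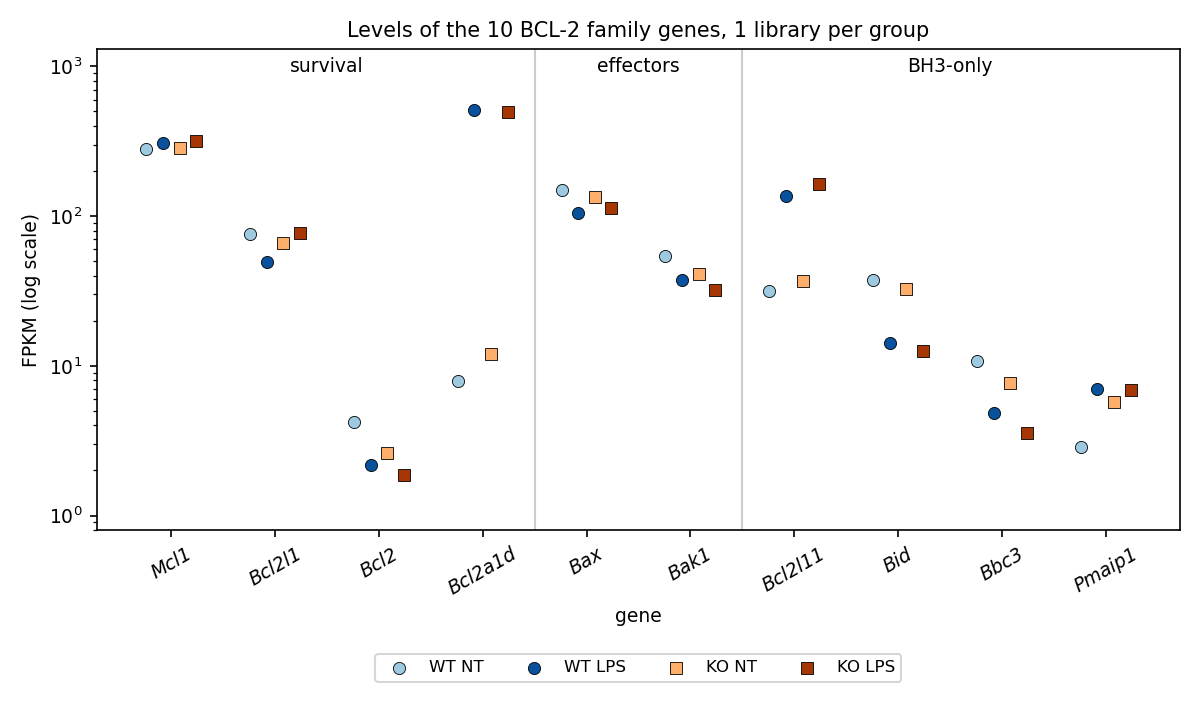
FPKM of the 10 genes (log axis) in the 4 libraries, 1 point per library, grouped by role. Bcl2a1d and Bcl2l11 are the genes whose LPS points stand far above both NT points, and Mcl1 stays between 281 and 315 FPKM.

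Among the 10 genes, the most abundant transcript without LPS in both genotypes was Mcl1, followed by Bax, Bcl2l1 and Bak1. With LPS, the order of the 10 in both genotypes was Bcl2a1d, Mcl1, Bcl2l11, Bax, Bcl2l1, Bak1, Bid, Pmaip1, Bbc3 and Bcl2. Each neighbouring pair in that LPS order was apart by more than its 95% counting interval, in WT and in KO. These intervals leave out the splitting of reads among the Bcl2a1 copies, so the place of Bcl2a1d is less certain than they show. In WT NT the neighbours Bbc3 and Bcl2a1d could not be separated (ratio of FPKM 1.36, interval 0.923 to 2.03). In KO NT the same held for Bak1 and Bcl2l11 (1.11, 0.99 to 1.24) and for Bbc3 and Pmaip1 (1.33, 0.978 to 1.82). Annotated genes that overlap a member had at most 3 counts in any library, apart from Mir3473f within Bcl2, with 3.09 to 10.9. Bcl2, the founding member, was the lowest of the 10 in 3 of the 4 libraries and next to lowest in WT NT.

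With LPS, Bcl2a1d was the survival gene that was at least 2-fold higher, in both genotypes, and BH3-only transcripts went in opposite directions: Bcl2l11 was higher, Bid and Bbc3 were lower. In WT, 3 of the 10 genes were at least 2-fold higher on the log2(FPKM + 1) scale (Bcl2a1d, Bcl2l11 and Pmaip1), where 6.41% of the 10972 genes compared were, and 2 were at least 2-fold lower (Bid and Bbc3), where 17.2% of all genes were. In KO, 2 genes were at least 2-fold higher (Bcl2a1d and Bcl2l11), against 6.61% of 11069 genes, and 1 was at least 2-fold lower (Bid), against 15.1%. By counting error alone, 4 members had a ratio of FPKM with a 95% interval above 1 and 6 below 1 in WT, against 13.3% and 60.4% of all genes. In KO, 4 were above and 5 below, against 14.5% and 57.1%. The median log2 fold of the 10 genes was -0.52 in WT and -0.05 in KO. All genes compared had a median of -0.46 in WT and -0.42 in KO, and FPKM is a share of the reads, in which a gain of some genes lowers the rest. With the libraries rescaled by their median ratio, that shift was -0.03 in both, the same 3 genes in WT and 2 in KO were at least 2-fold higher, and none of the 10 was 2-fold lower, while all genes split into 9.62% higher and 7.56% lower in WT and 9.76% and 6.84% in KO.

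Among the survival genes, Mcl1 (NCBI gene 17210, chr3:95656944-95663179), whose short-lived protein holds BAK and BIM in check, was at 281 FPKM untreated and 307 with LPS in WT, and 283 and 315 in KO. The LPS libraries were slightly above the NT libraries, with ratios of 1.09 in WT (1.05 to 1.13) and 1.11 in KO (1.07 to 1.15). These are the narrowest intervals of the 10 genes, since each library held from 5615 to 6090 Mcl1 counts. Relative to the median of all genes, the log2 difference was 0.59 in WT and 0.57 in KO.

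Bcl2l1 (NCBI gene 12048, chr2:152758732-152833803) encodes BCL-XL, the survival protein that guards the mitochondria of many long-lived cells. Its level was 75.4 FPKM untreated and 49.3 with LPS in WT, and 65.7 and 76.7 in KO. WT LPS stood lowest, and the LPS difference had opposite signs in the 2 genotypes. The ratio of LPS over NT was 0.654 in WT (0.594 to 0.719) and 1.17 in KO (1.07 to 1.28). The WT value lay close to the median of all genes, 0.14 below it on the log2 scale (relative log2 fold -0.14), while the KO value lay above it by 0.64.

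Bcl2 (NCBI gene 12043, chr1:106538176-106714290) was at 4.24 FPKM untreated and 2.19 with LPS in WT, and 2.61 and 1.87 in KO, from 149, 90, 102 and 63 counts. WT NT was the highest of the 4 libraries. The ratio of LPS over NT was 0.517 in WT (0.393 to 0.675) and 0.716 in KO (0.511 to 0.983). Relative to the median of all genes, the log2 difference was -0.26 in WT and 0.09 in KO. With median ratio scaling the log2 fold was -0.36 in WT and -0.04 in KO, so in KO Bcl2 was lower by about the shift of all genes. The length the authors' table gives for Bcl2 ran from 6124 to 7209 bases between libraries, and 2 transcripts are annotated for it. With 1 common length the log2 fold in WT was -0.54 in place of -0.72.

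Bcl2a1d was at 7.97 FPKM untreated and 511 with LPS in WT, and 12.04 and 498 in KO, from 34.9, 2227, 52.7 and 2015 counts. Both LPS libraries were far above both NT libraries. Its LPS over NT ratio was 64.2 in WT (45.9 to 92.2) and 41.4 in KO (31.3 to 55.1), the widest change of the 10 genes. The other copies were higher with LPS as well. Bcl2a1b went from 44.3 to 1142 FPKM in WT and from 53.5 to 1114 in KO, Bcl2a1a from 1.09 to 129 and from 2.13 to 133, and Bcl2a1c from 0.86 to 17.9 and from 0.99 to 21.1. Bcl2a1c thus has an LPS ratio of 20.8 in WT on 2.02 counts without LPS, with an interval of 5.5 to 180.

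Summed over the 4 copies, where the splitting of reads among them matters less, Bcl2a1 came to 54.2 FPKM untreated and 1800 with LPS in WT, and 68.7 and 1767 in KO. The summed LPS over NT ratio was 33.2 in WT (29.1 to 38) and 25.7 in KO (22.9 to 29), lower than for Bcl2a1d alone. Bcl2a1d made up 14.7% and 17.5% of the sum without LPS and 28.4% and 28.2% with it, for WT and KO. Bcl2a1b was the largest contributor in each library, from 63.1% to 81.7%.

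**Figure D2:**
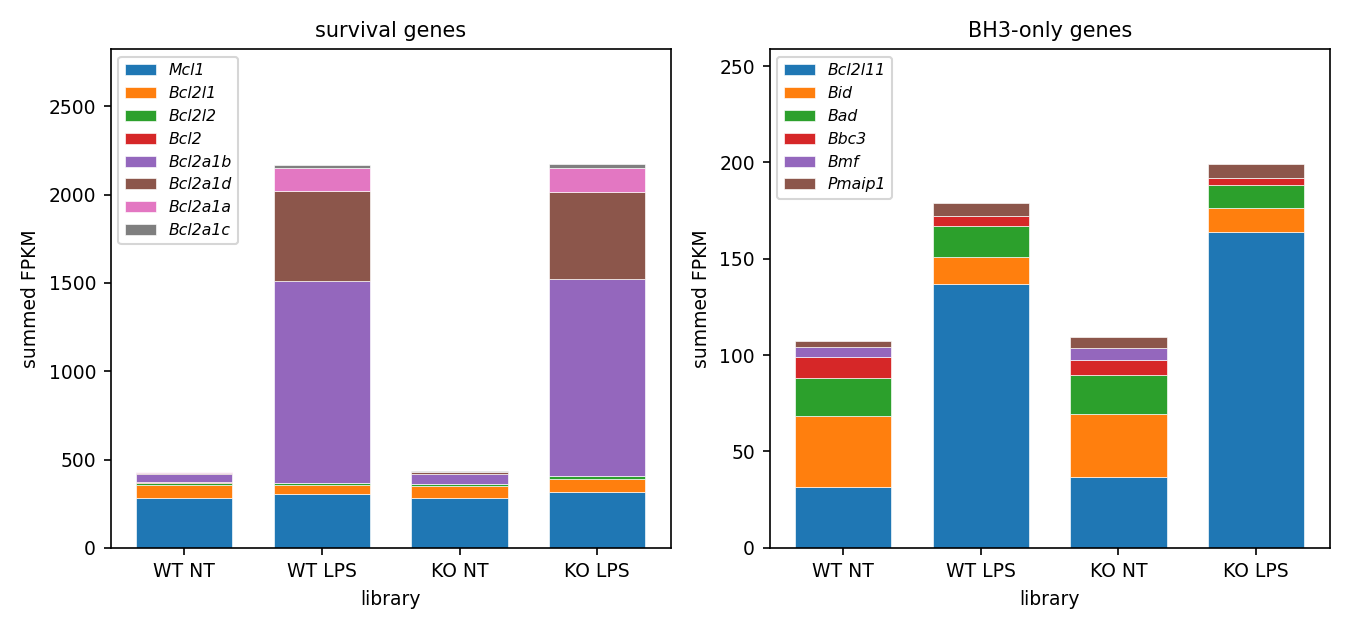
Summed FPKM of the survival genes (left) and the BH3-only genes (right) in each library, 1 bar per library, each colour 1 gene. The Bcl2a1 copies form 81.3% and 83% of the survival bar with LPS, and Bcl2l11 forms 76.6% and 82.4% of the BH3-only bar.

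The survival transcripts (Mcl1, Bcl2l1, Bcl2l2, Bcl2 and the Bcl2a1 copies) together reached 428 FPKM untreated and 2169 with LPS in WT, and 433 and 2173 in KO. Mcl1 supplied 65.7% and 65.4% of this sum in the NT libraries and 14.2% and 14.5% in the LPS libraries, although its own level hardly differed. Bcl2l1 went from 17.6% to 2.27% in WT and from 15.1% to 3.53% in KO. Bcl2l2, which encodes BCL-W and was no member of the chosen set, ranged from 11.0 to 13.1 FPKM over the 4 libraries, and each of its LPS and KO ratios had an interval that included 1. These are RNA levels, and the proteins differ in how long they last.

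In WT the effector genes were lower with LPS by about the shift of all genes, and in KO their direction depended on the scaling. Bax (NCBI gene 12028, chr7:45461695-45466903) was at 150 FPKM untreated and 105 with LPS in WT, and 135 and 113 in KO. Bak1 (NCBI gene 12018, chr17:27019812-27028627), whose product sits on mitochondria in healthy cells, was at 53.8, 37.2, 40.9 and 32.0 FPKM in the same order. For both genes each LPS library was below its NT library in FPKM. In WT the LPS ratio was 0.699 for Bax (0.623 to 0.785) and 0.691 for Bak1 (0.609 to 0.783), and relative to the median of all genes both were within 0.1 of it (log2 -0.05 and -0.06). In KO the ratios were 0.834 (0.74 to 0.938) and 0.783 (0.679 to 0.903), and with median ratio scaling both turned to slightly higher, with log2 folds of 0.16 and 0.07. No direction of Bax or Bak1 with LPS in KO therefore holds on both scales.

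Among the BH3-only genes, Bcl2l11 (NCBI gene 12125, chr2:128126038-128162547) encodes BIM, which binds all survival proteins and is a main trigger of death in immune cells. It was at 31.4 FPKM untreated and 137 with LPS in WT, and 37.0 and 164 in KO, from 889, 3749, 1027 and 4130 counts. Both LPS libraries were above both NT libraries, and within each state KO was above WT. The LPS ratio was 4.37 in WT (4.06 to 4.71) and 4.44 in KO (4.15 to 4.76). Its share of all BH3-only transcript went from 29.3% to 76.6% in WT and from 33.7% to 82.4% in KO.

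Bid (NCBI gene 12122, chr6:120893119-120917062) encodes the protein that caspase-8 cuts to carry a death receptor signal to mitochondria. It was at 37.2 FPKM untreated and 14.1 with LPS in WT, and 32.7 and 12.5 in KO. In each genotype the LPS library was below the NT library. The LPS ratio was 0.378 in WT (0.312 to 0.457) and 0.382 in KO (0.308 to 0.469). With median ratio scaling the log2 fold was -0.89 and -0.92, short of 2-fold but in the same direction.

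Bbc3 and Pmaip1 encode PUMA and NOXA, BH3-only proteins best known as p53 targets. Bbc3 (NCBI gene 170770, chr7:16308398-16318334) was at 10.8 FPKM untreated and 4.86 with LPS in WT, and 7.69 and 3.58 in KO, from 121, 54, 86 and 37 counts. Its LPS ratio was 0.45 in WT (0.32 to 0.625) and 0.466 in KO (0.308 to 0.692), so the LPS libraries were lower in both. Only WT reached 2-fold on the log2(FPKM + 1) scale (-1.01 against -0.92 in KO), and the ratio of the LPS ratios, 1.04 (0.606 to 1.76), included 1. Pmaip1 (NCBI gene 58801, chr18:66458604-66465558) was at 2.85 FPKM untreated and 7.0 with LPS in WT, and 5.77 and 6.89 in KO, from 43, 105, 87 and 96 counts. WT NT stood alone and the other 3 libraries lay together. The LPS ratio was 2.46 in WT (1.71 to 3.59) and 1.19 in KO, where the interval included 1 (0.884 to 1.62).

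**Figure D3:**
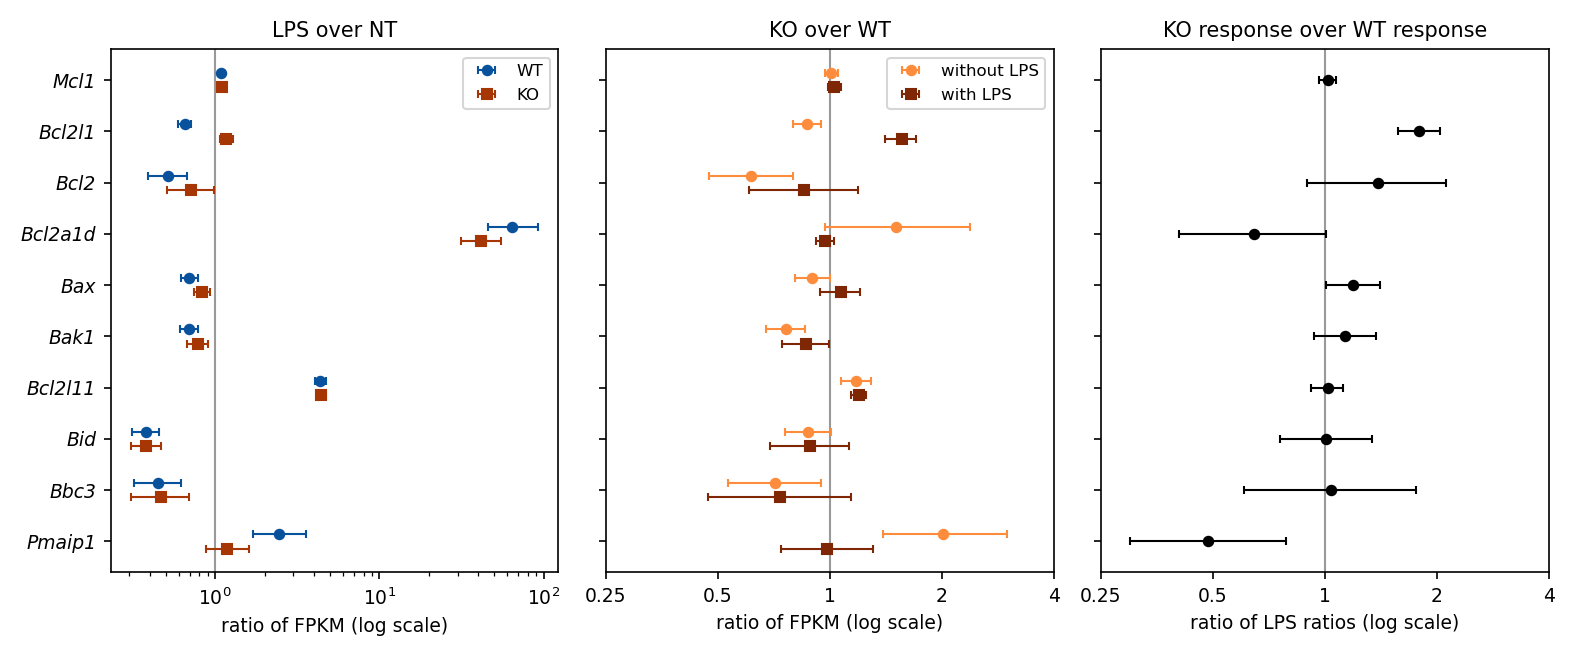
Ratios of FPKM with 95% counting intervals (log axes) for LPS over NT in each genotype (left), KO over WT in each state (middle) and the KO response over the WT response (right). Bcl2l1 and Pmaip1 stand on opposite sides of 1 in the right panel, at 1.79 and 0.486.

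Set against WT, some of these genes differed in KO by more than counting error. On the log2(FPKM + 1) scale no member was 2-fold apart in either state, where 1.81% of 10990 genes without LPS and 2.56% of 10375 genes with LPS were. The added 1 FPKM shrinks the folds of low genes. Pmaip1 without LPS had a log2 fold of 0.81 beside a ratio of FPKM of 2.02. Without LPS, 2 members had a KO over WT counting interval above 1 (Pmaip1 and Bcl2l11), against 14.2% of all genes, and 5 had one below 1 (Bcl2, Bcl2l1, Bax, Bak1 and Bbc3), against 11.6%. Those 5 include both effectors, but the interval of Bax ended at 0.999. With LPS, 2 members were above 1 (Bcl2l1 and Bcl2l11), against 21.2% of all genes, and Bak1 alone was below, against 9.5%. The neutrophil marker list was higher in KO in both states, with 6 of 9 measured markers above 1 without LPS and 5 of 10 with LPS, and the fibroblast list was lower, with 3 of 3 below 1 without LPS and 3 of 4 with LPS, at summed levels of 6.57 and 6.9 FPKM in WT and 3.69 and 3.5 in KO. The part of either list in the differences below was not tested. In bulk RNA, fewer cells of a type and less RNA per cell cannot be told apart.

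The largest KO over WT ratio without LPS was that of Pmaip1, at 2.02 (1.39 to 2.99). It was 0.984 with LPS (0.738 to 1.31). Bcl2 was lower in KO NT with a ratio of 0.616 (0.475 to 0.799), and 0.854 with LPS (0.607 to 1.19). Bbc3 had 0.711 (0.533 to 0.946) without LPS and 0.737 with LPS, where fewer counts gave an interval that included 1 (0.471 to 1.14).

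Bcl2l11 was the member whose KO over WT ratio had an interval above 1 in both states, at 1.18 without LPS (1.07 to 1.29) and 1.2 with LPS (1.14 to 1.25). Bak1 was the one with an interval below 1 in both, at 0.761 (0.673 to 0.859) and 0.862 (0.745 to 0.997). With LPS its interval ended close to 1, and its log2 fold of -0.21 became -0.16 with the libraries rescaled to equal sums. Mcl1 was close to equal in the genotypes, at 1.01 (0.971 to 1.05) and 1.03 (0.991 to 1.07), with a sign that turned under median ratio scaling in both states. The Bid ratios, 0.877 (0.758 to 1.01) and 0.884 (0.692 to 1.13), both had intervals that included 1. Summed Bcl2a1 had a ratio of 1.27 without LPS (1.06 to 1.51) and 0.982 with LPS (0.95 to 1.01). Bcl2a1d alone had 1.51 (0.971 to 2.39) and 0.974 (0.917 to 1.03), and the sign of the last turned with the libraries rescaled to equal sums.

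Bcl2l1 was the member that differed most between the genotypes with LPS, at a KO over WT ratio of 1.56 (1.41 to 1.71) where it was 0.871 without LPS (0.798 to 0.95). Its LPS response in KO was 1.79 times that in WT (1.57 to 2.04). For Pmaip1 the same ratio of responses was 0.486 (0.299 to 0.788), with the WT NT library as the one that stood apart. Bax had 1.19 (1.01 to 1.41), which included 1 after median ratio scaling (1.15, 0.974 to 1.36). These 3 of the 10 members had an interval that excluded 1, against 17.3% of the 9783 genes of at least 10 counts in each library. Mcl1, Bcl2l11, Bid and Bbc3 had response ratios between 1.01 and 1.04, with intervals that included 1. With the libraries rescaled to equal sums that of Mcl1 was 1.06 (1.01 to 1.12). The response ratio of Bcl2a1d was 0.645 (0.405 to 1.01), resting on 34.9 and 52.7 counts in the NT libraries. It excluded 1 after median ratio scaling (0.622, 0.391 to 0.973), and so did the response ratio of the 4 copies summed (0.775, 0.647 to 0.928).

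Bmf, a BH3-only gene outside the chosen 10, was far lower with LPS in both genotypes. The gene, which encodes a BH3-only protein tied to the cytoskeleton, was at 5.61 FPKM in WT NT (149 counts), not listed in WT LPS, 6.42 in KO NT (170 counts) and 0.37 in KO LPS (9 counts). In WT this is at least 49-fold lower, taking a floor of 3 counts for the library without it, and in KO the ratio was 0.0583 (0.0262 to 0.113). Bad, whose protein is switched off by growth factor kinases, was at 19.4, 16.0, 20.1 and 11.7 FPKM, with an LPS ratio whose interval lay below 1 in KO (0.583, 0.424 to 0.794) but not in WT (0.827, 0.624 to 1.09). The KO response of Bad over its WT response was 0.705 (0.46 to 1.08), which included 1. Bok, Bik, Hrk, Bcl2l14 and Bcl2l15 had at most 2 counts in any library, and Bcl2l10 was listed in none.

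The other genes of the pathway are 78, among them the Bcl2a1 copies, Bmf and Bad. With LPS in WT, 11 of 69 measured genes passed 2-fold upward and 11 downward, where 6.41% and 17.2% of all genes did, with a median log2 fold of -0.25 beside -0.46 for all genes. In KO, 11 of 70 were higher and 9 lower, where 6.61% and 15.1% of all genes were, with a median of -0.33 beside -0.42. Between genotypes, 0 of 68 were 2-fold apart without LPS and 1 of 69 with LPS, Moap1, at 27.9 fractional counts against none. So few reads, split among genes, leave its level uncertain.

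**Figure D4:**
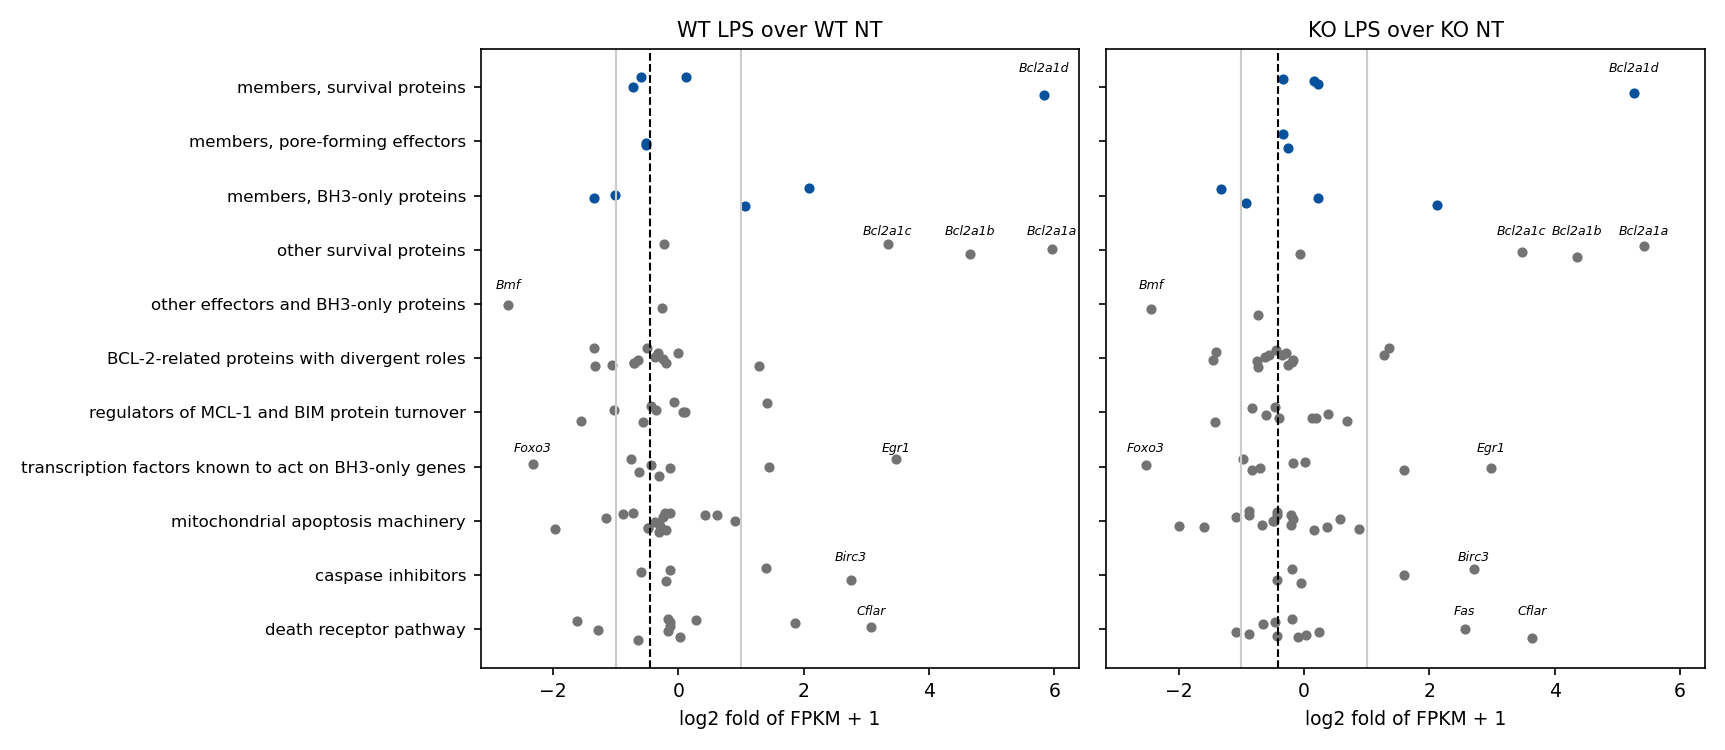
Log2 fold of FPKM + 1 with LPS in WT (left) and KO (right) for each measured gene of the 10 chosen (blue) and of the other pathway lists (grey). Grey lines mark 2-fold and the dashed line the median of all genes (-0.46 and -0.42); Bcl2a1 copies, Egr1, Birc3 and Cflar lie far to the right, Bmf and Foxo3 to the left.

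Some genes that hold back caspases or death receptor signals were higher with LPS, and so was the death receptor gene Fas. Of all genes, 6.41% in WT and 6.61% in KO were at least 2-fold higher, and 17.2% and 15.1% at least 2-fold lower. Cflar, which encodes c-FLIP, a decoy for caspase-8 upstream of Bid, was at 31.7 FPKM untreated and 274 with LPS in WT, and 20.7 and 269 in KO. Birc3, an inhibitor of apoptosis protein gene, was at 15.2, 108, 19.1 and 131 FPKM. Of the 5 genes listed as caspase inhibitors, all measured, 2 were at least 2-fold higher in both genotypes, Birc2 and Birc3. Whether their proteins act on caspases directly in these cells was not tested. Birc6 was lower in FPKM, with LPS ratios of 0.637 (0.585 to 0.693) in WT and 0.859 (0.79 to 0.933) in KO. The LPS ratios of Xiap and Birc5 had intervals that included 1 in both genotypes. In the death receptor list of 11, Fas and Cflar were at least 2-fold higher in both genotypes and the adaptor Fadd at least 2-fold lower in both, and the log2 fold of the adaptor Tradd was -1.62 in WT and -0.88 in KO.

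Of the 17 genes listed as mitochondrial apoptosis machinery, which act at the mitochondrial membranes or on the caspases, none was at least 2-fold higher with LPS in either genotype, where 6.41% of all genes were in WT and 6.61% in KO. Casp9, the caspase that cytochrome c starts, was at 16.9 FPKM untreated and 3.57 with LPS in WT, and 17.8 and 3.70 in KO, with ratios of 0.211 (0.163 to 0.269) and 0.208 (0.16 to 0.266). Its partner Apaf1 was higher with LPS, at 13.0, 25.4, 12.9 and 24.4 FPKM. Genes of the same complex thus went opposite ways. Casp2 was at least 2-fold lower in both genotypes, at 7.95, 3.03, 9.20 and 2.36 FPKM. Of the 17 genes, 2 were at least 2-fold lower in WT and 3 in KO, with Endog added, where 17.2% and 15.1% of all genes were.

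Among transcription factors known to act on BH3-only genes, Foxo3, which is known to drive Bcl2l11 and Bbc3 in other cells, was at 9.78 FPKM untreated and 1.16 with LPS in WT, and 11.7 and 1.19 in KO. With LPS the Bcl2l11 transcript was higher, and the Bbc3 and Foxo3 transcripts were lower. Whether Foxo3 acts on either gene in these cells was not tested. Egr1, of the same list, was at 0.80, 19.1, 1.14 and 16.0 FPKM. Among the 8 listed genes measured, 2 were at least 2-fold higher with LPS in both genotypes (Egr1 and Mdm2) and 1 at least 2-fold lower (Foxo3). Over all genes, 6.41% in WT and 6.61% in KO were higher, and 17.2% and 15.1% lower. Trp53 was at 34.4, 31.3, 39.8 and 35.2 FPKM, while Mdm2, which encodes the ligase that removes p53, was at 64.8, 177, 49.4 and 151 FPKM. The FOXO motif TGTTTAC was found on either strand in 2 of the 14 member windows, 1 of Bcl2l11 and 1 of Bbc3, and in 3.17% of all 32851 windows. The stretches are shown because these genes went opposite ways with LPS, with the match in capitals, GRCm38.p6, plus strand.
Bcl2l11, chr2:128125788-128125847: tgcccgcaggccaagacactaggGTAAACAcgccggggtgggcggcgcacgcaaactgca
Bbc3, chr7:16310068-16310127: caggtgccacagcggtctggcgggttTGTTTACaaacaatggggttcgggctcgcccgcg
The match starts 227 bases before the annotated start of Bcl2l11 and 167 bases before that of a Bbc3 transcript, inside an intron of longer Bbc3 transcripts. The kappaB motif, searched by name, was found in 2 of the 14 windows, of Bbc3 and Bcl2l1, and in 3.9% of all, and the p53 half-site in 1 of the 14, of Bax, and in 7.13% of all. No member window held the CRE motif TGACGTCA, found in 1.55%. Pmaip1, which had no promoter entry, was not searched for any motif. Presence of letters says nothing of binding in these cells.

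For genes that regulate how long MCL-1 and BIM proteins last, 9 of 10 were measured. Fbxw7, a ligase subunit that marks MCL-1 for destruction, was at 9.04 FPKM untreated and 2.40 with LPS in WT, and 7.99 and 2.36 in KO. Marchf5, a mitochondrial ligase, was higher with LPS at 41.1, 111, 49.9 and 81.0 FPKM, with a listed length that ran from 2271 to 3012 bases between libraries. Both of these act on a protein whose own transcript, Mcl1, was nearly level.

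The genes whose profile over the 4 libraries was most like that of a member were found for the 3 members of widest range, by the root mean square difference of log2(FPKM + 1) centred on each gene's mean, among 9194 candidates. For Bcl2a1d they included Maff (0.176) and Bcl2a1a (0.080), the near-identical copy among whose reads and its own the estimation splits. For Bcl2l11 they were Mmd (0.038), Akna (0.055) and Ralgds (0.063). Like Bcl2l11, all of these were higher with LPS and higher in KO, which follows from their choice by profile. For Bid they were Stx2 (0.020), Det1 (0.025) and Rgp1 (0.026). With 4 libraries such likeness is a description and carries no more than these 4 values per gene.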

How the data were processed

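Per the labels' protocols, the RNA of the 4 libraries was sequenced on a HiSeq. The submitters' processing notes name Bowtie, RSEM and mm10. Annotation, strand setting and versions: not given in the sources used here. The deposited tables list, per NCBI gene identifier, a length, the authors' RSEM expected count, in which reads that fit several genes are split, and the authors' FPKM. A gene missing from a table was set to 0.

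Symbols and coordinates came from RefSeq (GRCm38.p6, the assembly mm10 denotes): 15897 of 15935 identifiers matched. Folds are differences of log2(FPKM + 1), taken where 1 of the 2 libraries reached 1 FPKM. The rule was 2-fold. Ratios of FPKM carry exact 95% intervals (Clopper-Pearson, from expected counts rounded to whole numbers), and ratios of 2 LPS ratios the exact conditional interval of the odds ratio. A gene not listed was given a floor of 3 counts per library. Intervals and floors cover counting error only, since each group has 1 library. PCR reads are not independent molecules, so even that error can be larger than the intervals show. Python 3.11.15, scipy 1.17.1 and Biopython 1.88 were used. Coding sequences are the longest open reading frames of GENCODE M21 transcripts. The proteins were not analysed here.

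The members and gene lists were chosen with earlier results of these data known. Named genes are the 10 members, Ezh2, Lyz2, the other family genes, up to 4 genes per pathway list and comparison with the largest fold among those of at least 50 expected counts, and the 3 nearest profiles of 3 members, of which 1 is not reported here. Trp53, Moap1 and genes named in counts were added after their values were seen. The computations were tested on simulated counts. Alternatives were pseudocounts of 0.1 and 5, filters, scalings, CPM, 1 length per gene, 1.5-fold and 3-fold rules and summed Bcl2a1 copies.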

Additional observations from a re-analysis of the deposited data

How the results depend on the processing

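Each group has 1 library, so no library could be left out and depth sets the only error given. No paired analysis was possible because each group holds only replicate 1, and the groups therefore share fewer than 2 replicate numbers. Of the 10 members, 5 were at least 2-fold apart with LPS in WT, and this was 3 with a pseudocount of 5 (Bcl2a1d, Bcl2l11, Bid), 3 with median ratio scaling (Bcl2a1d, Bcl2l11, Pmaip1) and 2 at 3-fold (Bcl2a1d, Bcl2l11). Between genotypes the count of 0 became 1 at 1.5-fold, Pmaip1 without LPS and Bcl2l1 with LPS. Of the other pathway genes, 22 were apart with LPS in WT and 11 at 3-fold. With LPS in KO they were 20, and 13 with a pseudocount of 5, 36 at 1.5-fold and 13 at 3-fold. For KO against WT without LPS the count of 0 was 1 with a pseudocount of 0.1, 1 in CPM and 4 at 1.5-fold. With LPS the count of 1 was 3 with a pseudocount of 0.1, 2 in CPM, 6 at 1.5-fold, and 0 with a pseudocount of 5, with a filter of 5 FPKM or at 3-fold. The other 71 alternatives to these counts, and to the count of members with differing LPS responses, stayed within 1.5 times. Of 40 log2 folds of members, median ratio scaling moved 14 beyond counting error and a pseudocount of 5 moved 3; equal sums, CPM, 1 length per gene and a pseudocount of 0.1 moved none. Summing the Bcl2a1 copies took the log2 fold with LPS from 5.84 to 5.03 in WT and from 5.26 to 4.66 in KO. The cause of these moves was not tested, apart from the fewer or more genes that a stricter or looser size rule keeps by construction.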

Other observations

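Some genes next to the family in the pathway differed between genotypes by more than counting error, as many genes did. Without LPS, 14.2% of all genes had a KO over WT interval above 1 and 11.6% one below 1. With LPS these shares were 21.2% and 9.5%. Of the other pathway genes measured, 11 of 68 were above and 15 below without LPS. With LPS, 14 of 69 were above and 11 below. Mlkl, which encodes the pore protein of necroptosis, was at 30.4 FPKM untreated and 37.5 with LPS in WT, and 16.6 and 19.6 in KO, a KO over WT ratio of 0.544 without LPS (0.453 to 0.651) and 0.522 with LPS (0.44 to 0.618). Cycs, which encodes cytochrome c, had ratios of 0.74 (0.652 to 0.841) and 0.713 (0.636 to 0.798). E2f1, a cell cycle transcription factor, had 1.58 (1.33 to 1.88) and 1.38 (1.1 to 1.74).

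The LPS response differed between genotypes in the same terms for Cflar, with 8.64 in WT and 13 in KO (ratio of responses 1.5, 1.36 to 1.66). For the death receptor adaptor Tradd the LPS ratio was 0.276 in WT and 0.513 in KO (1.86, 1.07 to 3.27). An interval of the ratio of responses that excluded 1 was found for 17.3% of the 9783 genes of at least 10 counts in each library. None of these differences has a replicate.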
